A study of Mus musculus with 4 samples.

Results

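The genes described are the chemokine ligands and interleukins of the mouse, together with Lif, Csf1, Ctf1, Clcf1, Tnf and Il1rn, chosen by symbol alone: names made of Ccl, Cxcl or Il and a number (with one of the letters a to f after the number for interleukins), and Cx3cl1. Of 18193 genes with a probe set of a single symbol, 65 met the rule, and each is represented by 1 probe set, the one with the highest mean log2 signal, with sets of the suffix _x_at avoided where another existed. Transcripts were measured in C2C12 cells, a mouse muscle precursor line that stops dividing and forms multinucleated myotubes once serum is withdrawn. The shLSD1 group (2 arrays) carried a plasmid encoding a short hairpin RNA against LSD1, the histone demethylase encoded by Kdm1a, and the shControl group (2 arrays) carried one encoding a non-targeting hairpin. Both groups were stable transfectants selected with hygromycin B at 750 µg/mL and grown in 10% fetal bovine serum with 25 mM glucose, and both were collected 48 hours after the change to 2% horse serum. The question put to these arrays is how loss of LSD1 alters transcripts of differentiating muscle cells. The sources give 1 hairpin against LSD1 and do not describe separate cultures or clones. A p-value here rests on the spread between 2 arrays of each kind, which may be technical. The fit combines that spread with the spread of other genes of like signal. Both groups went through the same selection. An effect of losing LSD1 cannot be told apart from another effect of this hairpin or from a difference between the selected lines.

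Chemokines are small secreted proteins that steer migrating cells through G protein-coupled receptors, and the CC, CXC and CX3C subfamilies are named after the spacing of their first cysteines. Many interleukins and related cytokines, though not all, act through receptors coupled to JAK kinases and STAT factors. Receptors of the IL-1 family and of TNF are coupled to NF-kB. In muscle they are known mostly from injury, when they draw monocytes, neutrophils and regulatory T cells to damaged fibres, and some (LIF, IL-15, CXCL12) also act on myoblasts themselves.

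Each value is a MAS5 signal, a linear intensity for a probe set, and a difference is given as log2 fold change, shLSD1 minus shControl, with its standard error (SE) from limma. A gene was tested if its mean log2 signal lay above the median of all probe sets, 6.03, a signal of 65.4, and called if its p-value adjusted over all 10879 genes tested was under 0.05. Kdm1a had signals of 922 and 1034 in shLSD1, against 4603 and 4588 in shControl (limma adjusted p = 2.89e-05), or 21.3% of the control level. Of 18 genes listed as markers of differentiating muscle, 18 were above the filter. In shLSD1 1 of them rose and 14 fell, where 8.75% of all tested genes rose and 7.09% fell. The gene that rose was the myogenic determination gene Myf5, with signals of 2403 and 2614 in shLSD1, against 1040 and 1030 in shControl. Of 23 measured markers of immune cells 21 lay below the filter, as did 10 of 10 endothelial markers. Among the 21 was Ptprc, the gene of the pan-leukocyte antigen CD45, with signals of 2.67 and 6.94 in shLSD1 and of 6.10 and 8.40 in shControl. The summed signal of the immune markers was 965 to 1093 in shLSD1 and 954 to 1116 in shControl, which overlap. That sum adds unlike probe sets, most of them below the filter, so it says little about a difference between the groups.

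Most of the family lay near background. Of the 65 genes 42 were below the filter, and 39 had a mean log2 signal under the level that 95% of 69 olfactory and vomeronasal receptor genes, most of which are expressed mainly in sensory neurons, did not exceed (a signal of 50.2). One caution is that 1 of these 69 genes passed the filter itself. The 23 tested genes were 6 CC chemokines, 6 CXC or CX3C chemokines, 4 members of the IL-1 family, 3 of the IL-6 family, both ligands of the CSF1 receptor, and Il12a and Il15. All 23 had a mean above the filter in each group, so none was tested through 1 group alone. Signals of different probe sets are not levels of transcript on a common scale, so genes are compared here with themselves across arrays.

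**Figure D1:**
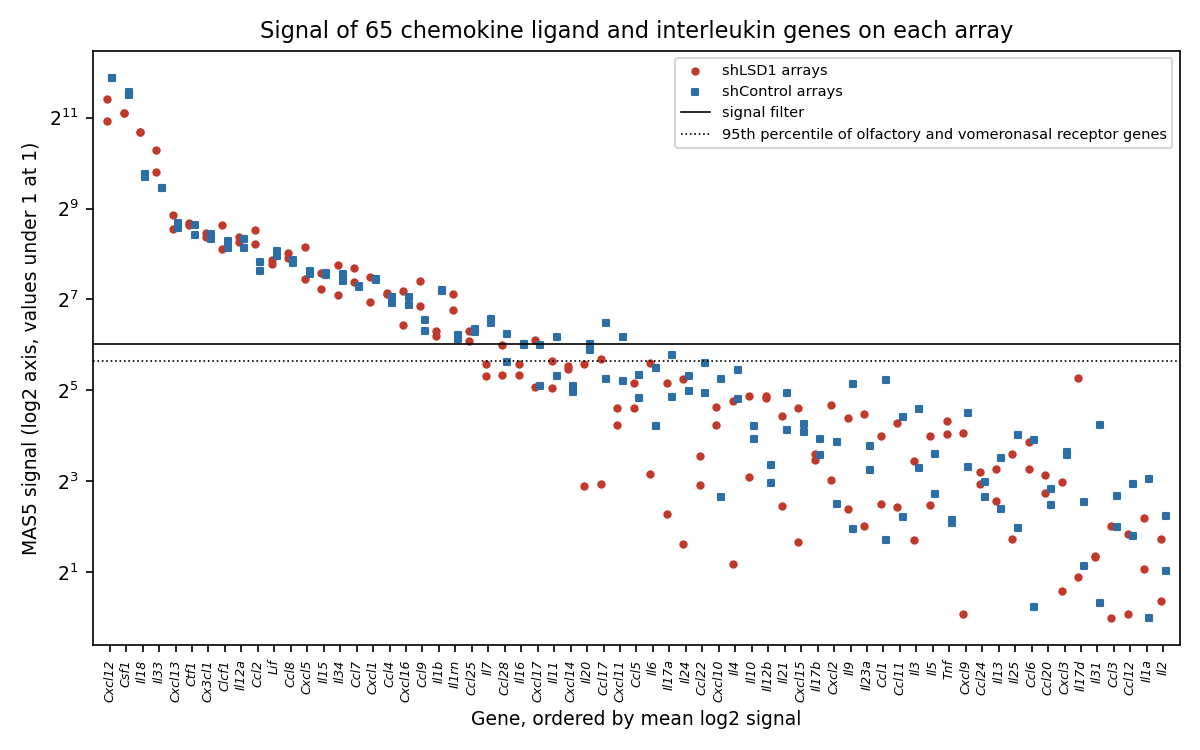
MAS5 signal (log2 axis) of the 65 genes on each array, ordered by mean log2 signal, with 2 shLSD1 arrays as circles and 2 shControl arrays as squares. The solid line is the signal filter at 65.4 and the dotted line the 95th percentile of olfactory and vomeronasal receptor genes at 50.2; replicate arrays spread far more below the lines than above them.

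Of the 23 genes, 3 rose in shLSD1 (Il18, Il33 and Ccl2) and 3 fell (Il1b, Cxcl12 and Csf1), which is 13.0% in each direction. Against the 8.75% that rose and 7.09% that fell over all 10879 genes tested, 3 of 23 in each direction does not set the family apart. The median log2 fold change was 0.08 for the 23 genes and 0.00 for all genes tested. Both shLSD1 arrays lay above both shControl arrays for 9 of the 23 genes and below them for 4, where 30.7% and 29.4% of all tested genes did so.

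**Figure D2:**
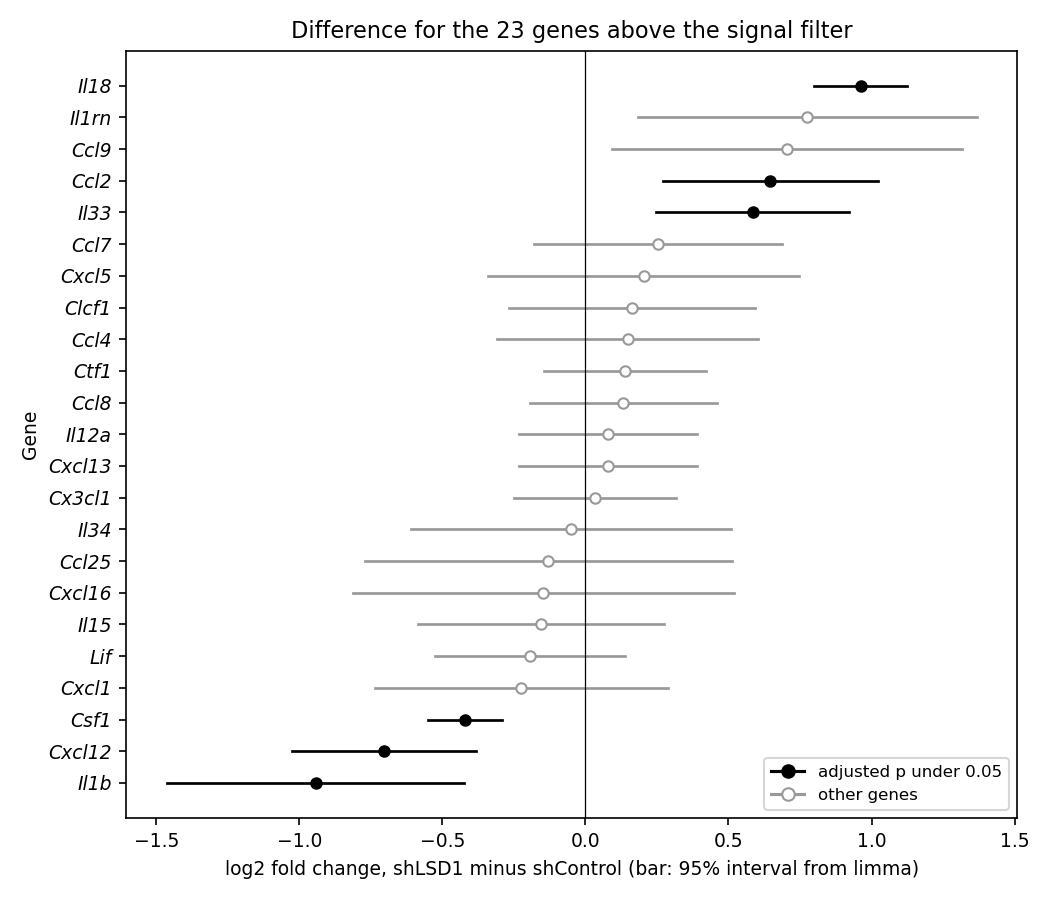
Log2 fold change (shLSD1 minus shControl) of the 23 genes above the signal filter, with the 95% interval from limma as a bar. The 6 genes past the threshold are filled; they run between -0.94 for Il1b and 0.96 for Il18, and the intervals of Il1rn and Ccl9 also leave out 0 although neither passed the adjusted threshold.

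The regions before the starts of the called genes are shown so that their base composition and core promoter motifs can be read beside the values that follow. RefSeq sequence of build GRCm38.p6 was matched by symbol for 46 of the 65 genes and for 5 of the 6 called ones, and each line gives the 250 bases before the annotated start, on the gene's strand. The windows are chr9:50554450-50554699 (plus strand) for Il18, chr19:29924863-29925112 and chr19:29945540-29945789 (plus strand) for 2 starts of Il33, chr2:129371140-129371389 (minus strand) for Il1b, chr6:117168285-117168534 (plus strand) for Cxcl12 and chr3:107760470-107760719 (minus strand) for Csf1. Capitals mark the TATA box TATAAA (searched on the gene's strand), the GC box GGGCGG, the AP-1 motif TGANTCA and the NF-kB consensus (each searched on both strands).
Il18: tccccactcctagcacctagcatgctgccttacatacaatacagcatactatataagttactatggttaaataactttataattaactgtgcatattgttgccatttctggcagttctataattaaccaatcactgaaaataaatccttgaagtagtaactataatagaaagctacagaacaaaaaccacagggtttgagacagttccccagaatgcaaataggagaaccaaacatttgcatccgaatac
Il33 start 1: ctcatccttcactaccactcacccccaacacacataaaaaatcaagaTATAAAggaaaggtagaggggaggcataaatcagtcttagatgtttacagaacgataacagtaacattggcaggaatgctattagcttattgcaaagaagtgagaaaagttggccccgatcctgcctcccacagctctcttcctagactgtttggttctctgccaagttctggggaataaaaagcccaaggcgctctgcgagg
Il33 start 2: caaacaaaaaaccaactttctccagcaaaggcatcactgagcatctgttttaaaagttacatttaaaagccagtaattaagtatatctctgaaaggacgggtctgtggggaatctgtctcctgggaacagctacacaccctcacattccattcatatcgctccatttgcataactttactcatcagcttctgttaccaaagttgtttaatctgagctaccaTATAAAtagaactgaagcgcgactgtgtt
Il1b: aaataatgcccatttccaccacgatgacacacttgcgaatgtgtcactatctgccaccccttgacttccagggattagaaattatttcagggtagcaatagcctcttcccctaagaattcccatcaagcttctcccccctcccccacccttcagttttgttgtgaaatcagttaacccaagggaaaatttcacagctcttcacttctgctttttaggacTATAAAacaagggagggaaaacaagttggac
Cxcl12: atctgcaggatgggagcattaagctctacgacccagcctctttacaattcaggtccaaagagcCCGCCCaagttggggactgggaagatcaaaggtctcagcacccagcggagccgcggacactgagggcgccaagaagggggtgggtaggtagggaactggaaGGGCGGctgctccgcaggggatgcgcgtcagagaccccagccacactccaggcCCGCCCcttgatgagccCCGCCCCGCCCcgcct
Csf1: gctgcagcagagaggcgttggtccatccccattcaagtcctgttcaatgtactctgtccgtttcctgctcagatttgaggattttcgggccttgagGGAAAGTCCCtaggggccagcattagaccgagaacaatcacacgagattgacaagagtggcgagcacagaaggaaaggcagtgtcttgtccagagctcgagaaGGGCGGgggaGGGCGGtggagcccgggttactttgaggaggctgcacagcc

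The TATA box stood 31 to 26 bases before the start of Il1b and 29 to 24 bases before start 2 of Il33, and a further match lay 203 to 198 bases before start 1. The same letters are found in 7.59% of 32851 such windows. Cxcl12 held 5 GC boxes, of which 2 share a base, and Csf1 held 2, while 32.7% of all windows hold at least 1. Csf1 held the only match to the NF-kB consensus in these 6 windows, 154 to 145 bases before its start, a motif of 3.90% of all windows, and no window shown held the AP-1 letters (6.75% of all windows). The share of G and C was 64.4% for Cxcl12 and 56.4% for Csf1, and 35.6% for Il18, 44.4% for Il1b and 45.2% and 39.6% for the starts of Il33, against a median of 52.4% over all windows. These matches describe letters in a window and were not set against binding data.

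Of 4 tested genes of the IL-1 family, 2 rose and 1 fell, where 15.8% of all tested genes passed the threshold in either direction. Il18 encodes a cytokine that is stored as a precursor, cut by caspase-1, and drives interferon-gamma production by T and natural killer cells. Its signal was 1645 and 1651 in shLSD1, against 824 and 870 in shControl. The shLSD1 arrays lay well above the shControl arrays and the replicates of each group were close, for a 1.95-fold higher level (log2 fold change 0.96, SE 0.07, n = 2 and 2, limma adjusted p = 2.84e-04). Il33 encodes a nuclear cytokine released from damaged cells that acts on regulatory T cells and innate lymphoid cells through the receptor ST2. Its signal was 1241 and 890 in shLSD1, against 703 and 698 in shControl. Both shLSD1 arrays were higher, although they differed from each other by more than the shControl arrays did (log2 fold change 0.59, SE 0.14, limma adjusted p = 0.0322). Il33 measured 0.35 without shLSD1 replicate 1 and 0.82 without shLSD1 replicate 2, the limits of its range over the alternatives, and missed the threshold when either shControl array was left out, when dim genes were kept, when the variance had no intensity trend and when probe sets were averaged for all genes. Il18 kept its call in all 13 alternatives (0.922 to 1.001).

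Il1b, which encodes the secreted agonist IL-1beta, fell. Its signal was 79.4 and 73.0 in shLSD1, against 145 and 148 in shControl. The groups were clearly apart, but the shLSD1 values sat just above the filter level of 65.4 (log2 fold change -0.94, SE 0.22, limma adjusted p = 0.0272), and it missed the threshold when either shControl array was left out or dim genes were kept. Il1rn, the gene of the receptor antagonist that blocks IL-1, had signals of 139 and 109 in shLSD1, against 69.6 and 74.4 in shControl. Both shLSD1 arrays were higher, and the difference of 0.78 (SE 0.25, limma adjusted p = 0.0798) did not pass the threshold. A dimmer Il1rn probe set gave 1.13 and another gave -0.07, both below the filter. Il1a, the other agonist gene, was near background, with a highest signal of 8.31 on the 4 arrays.

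**Figure D3:**
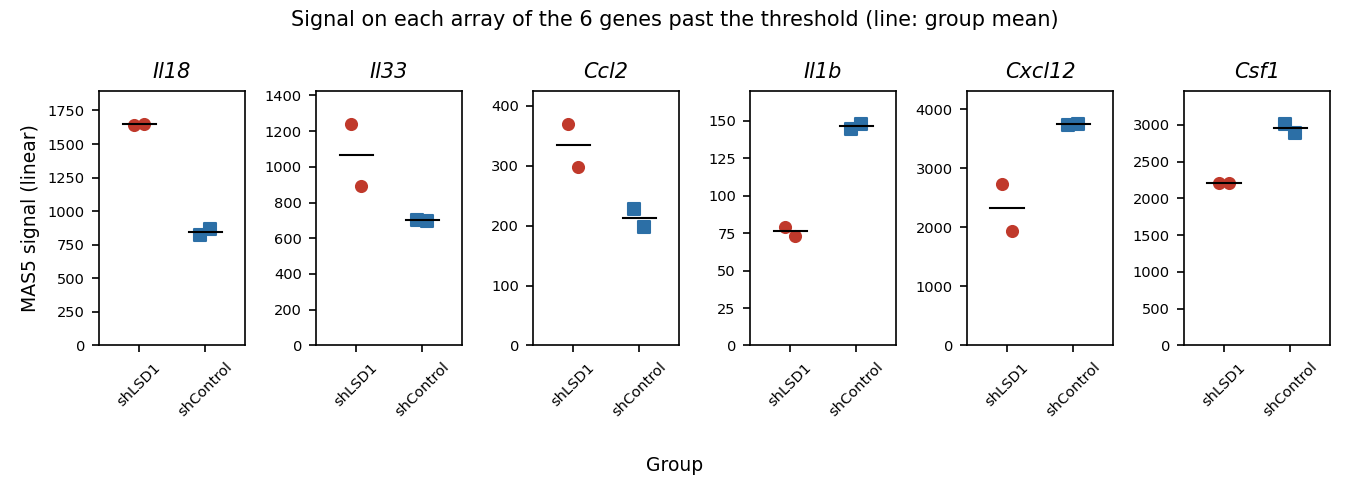
MAS5 signal (linear axes starting at 0) on each array of the 6 genes past the threshold, shLSD1 to the left and shControl to the right in each panel, with the group mean as a line. Il18, Il33 and Ccl2 are higher and Il1b, Cxcl12 and Csf1 lower in both shLSD1 arrays; the shLSD1 replicates of Cxcl12 and Il33 differ visibly.

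Among the CC chemokines 1 of 6 tested genes rose and 0 fell by limma, where 8.75% of all tested genes rose and 7.09% fell. Ccl2, whose product recruits monocytes through CCR2, had signals of 370 and 298 in shLSD1, against 227 and 198 in shControl. Both shLSD1 arrays were higher (log2 fold change 0.65, SE 0.16, limma adjusted p = 0.0334), but Ccl2 missed the threshold when either shControl array or shLSD1 replicate 1 was left out, when dim genes were kept, when the variance had no intensity trend and when probe sets were averaged for all genes. Ccl9, which encodes a ligand of CCR1, had signals of 169 and 117 in shLSD1, against 93.5 and 79.3 in shControl. Its groups did not overlap either, but the difference of 0.70 (SE 0.26, limma adjusted p = 0.115) did not pass the threshold. The difference was 0.97 without shLSD1 replicate 2 and 0.44 without shLSD1 replicate 1. A second Ccl9 probe set above the filter gave 0.50, with 117 and 59.5 in shLSD1 and 56.6 and 61.5 in shControl, which overlap.

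The other tested CC genes differed less than the fit could separate. The monocyte attractants Ccl7 and Ccl8 measured 0.25 (95% interval -0.18 to 0.69) and 0.13 (-0.20 to 0.46). Ccl4, which encodes an inflammatory chemokine, measured 0.15 (-0.31 to 0.60), and Ccl25, whose product attracts T cells to thymus and gut through CCR9, measured -0.13 (-0.77 to 0.51). The intervals therefore leave room for differences of either sign.

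Of the CC genes, 11 lie on chromosome 11 in 2 runs of directly neighbouring protein-coding genes, Ccl2, Ccl7, Ccl11, Ccl12, Ccl8 and Ccl1 in one and Ccl5, Ccl9, Ccl6, Ccl3 and Ccl4 in the other (order from the RefSeq gene table of GRCm38.p6). Only 5 of the 11 were above the filter. In all 5 (Ccl2, Ccl7, Ccl8, Ccl9 and Ccl4) both shLSD1 arrays lay above both shControl arrays, with log2 fold changes between 0.13 and 0.70. The second Ccl9 probe set overlapped between the groups. Having both shLSD1 arrays on top is common (30.7% of all tested genes), and of the 5 genes only Ccl2 passed the test. Between them lie members near background: Ccl11, the eotaxin gene, had signals of 19.6 and 5.40 in shLSD1 and 4.66 and 21.5 in shControl, and Ccl3 had 0.833 and 4.06 in shLSD1 and 6.43 and 3.97 in shControl. These signals overlap between the groups.

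**Figure D4:**
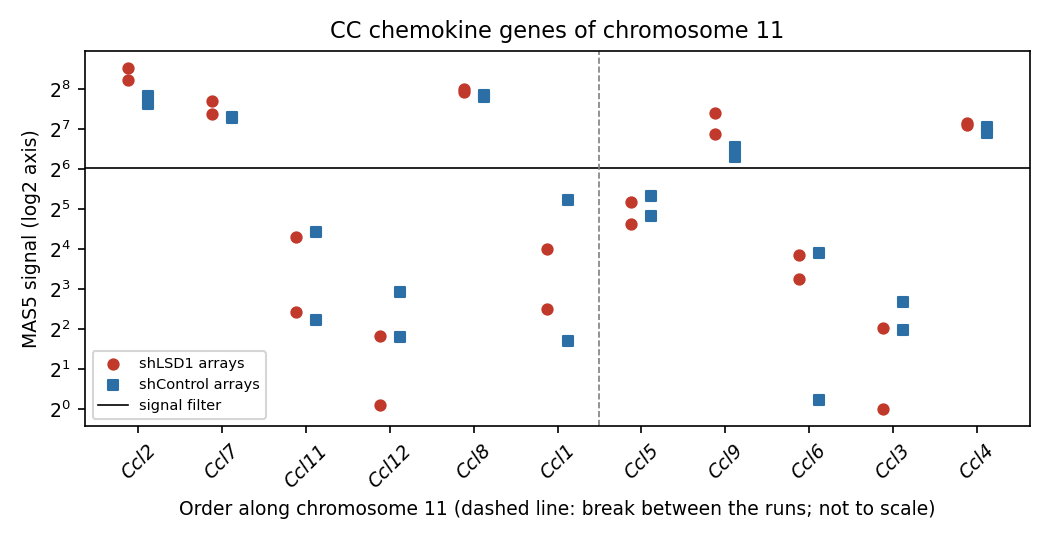
MAS5 signal (log2 axis, values under 1 at 1) of the 11 CC chemokine genes of chromosome 11 in their order along the chromosome, not to scale, with shLSD1 arrays as circles and shControl arrays as squares. Ccl2, Ccl7, Ccl8, Ccl9 and Ccl4 lie above the filter line at 65.4 with the shLSD1 arrays on top (an order that 30.7% of all tested genes show; of the 5, Ccl2 passed the test), and the other 6 lie below it and overlap between groups.

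Among the CXC and CX3C chemokines, 1 of 6 tested genes fell and 0 rose by limma, where 7.09% of all tested genes fell and 8.75% rose. Cxcl12 encodes SDF-1, the ligand of CXCR4 that holds blood stem cells in the marrow and guides muscle precursors. Its signal was 2730 and 1935 in shLSD1, against 3733 and 3753 in shControl. Both shLSD1 arrays were lower, and they differed from each other by far more than the shControl arrays did (log2 fold change -0.70, SE 0.14, limma adjusted p = 0.0133). A second probe set gave -0.74, with 1188 and 731 in shLSD1 and 1571 and 1551 in shControl. The difference of the first Cxcl12 probe set was -0.46 without shLSD1 replicate 2 and -0.95 without shLSD1 replicate 1. Cxcl12 missed the threshold when either shControl array was left out, when the variance had no intensity trend and when its probe sets were averaged (-1.23), an average that takes in another set near background.

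Beside Cxcl12, 5 of the 6 fibroblast markers with both group means above the filter fell and 0 rose by limma (7.09% and 8.75% over all tested genes). The median log2 fold change of these 6 was -0.53. Lum was tested only because of its shControl values and is left out of that count. The summed signal of the 10 measured fibroblast markers was 36478 to 40806 in shLSD1, against 51958 to 52512 in shControl, but the sum adds unlike probe sets and rests mostly on Col3a1, with 26463 and 24672 in shLSD1 and 31918 and 31531 in shControl. The 18 muscle markers, with the same limit, summed to 193504 to 210255 in shLSD1, against 268417 to 272494 in shControl. Their part in the result was not tested. All samples were of the C2C12 line, so the fibroblast markers need not mark fibroblasts here. Fewer cells with these transcripts and less RNA per cell cannot be told apart.

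The remaining 5 CXC and CX3C genes did not pass the test. The neutrophil attractants Cxcl1 and Cxcl5 measured -0.22 (95% interval -0.74 to 0.29) and 0.20 (-0.34 to 0.75), and 2 other Cxcl1 probe sets gave 0.11 and -0.54. Cxcl13, whose product draws B cells, measured 0.08 (-0.23 to 0.39), and a second Cxcl13 probe set above the filter gave -0.20. The membrane-bound chemokine genes Cxcl16 and Cx3cl1 measured -0.15 (-0.81 to 0.52) and 0.03 (-0.25 to 0.32).

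The ligands of the CSF1 receptor, which keep macrophages alive, were both measured. Csf1 had signals of 2205 and 2204 in shLSD1, against 3014 and 2892 in shControl. The shLSD1 arrays were almost equal and both lower (log2 fold change -0.42, SE 0.06, limma adjusted p = 2.67e-03), or 74.7% of the control level, and the call was kept in all 13 alternatives (-0.48 to -0.39). The 3 other Csf1 probe sets gave -0.33, -0.29 and -0.86. Il34, the second ligand gene, measured -0.05 (95% interval -0.61 to 0.51). The receptor gene Csf1r had signals of 128 and 84.4 in shLSD1 and 112 and 125 in shControl, which overlap (limma adjusted p = 0.682).

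No tested member of the IL-6 family, whose receptors share the gp130 subunit, passed the test. The count was 0 of 3 by limma, where 15.8% of all tested genes passed in either direction. Lif, known to stimulate myoblast proliferation, had signals of 234 and 218 in shLSD1, against 248 and 269 in shControl. The groups were apart by little (log2 fold change -0.19, 95% interval -0.53 to 0.14). Ctf1, the cardiotrophin gene, measured 0.14 (-0.14 to 0.42), and Clcf1, the gene of a ligand of the CNTF receptor, measured 0.16 (-0.27 to 0.59). Il6, released by working muscle, was near background with signals of 48.8 and 8.90 in shLSD1 and 45.02 and 18.7 in shControl. The gp130 gene Il6st measured -0.13 (SE 0.06, limma adjusted p = 0.195) and Lifr measured 0.03 (limma adjusted p = 0.861).

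Il15, a cytokine gene that muscle expresses and that sustains natural killer cells, had signals of 151 and 191 in shLSD1, against 192 and 187 in shControl. The groups overlapped (log2 fold change -0.15, 95% interval -0.58 to 0.27). Il12a, the gene of a subunit that IL-12 and IL-35 share, measured 0.08 (-0.23 to 0.39), and its partner gene in IL-12, Il12b, was near background, with signals of 28.7 and 29.6 in shLSD1 and 7.81 and 10.3 in shControl.

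The 42 genes below the filter were given no test. They were the CC genes Ccl1, Ccl3, Ccl5, Ccl6, Ccl11, Ccl12, Ccl17, Ccl20, Ccl22, Ccl24 and Ccl28, the CXC genes Cxcl2, Cxcl3, Cxcl9, Cxcl10, Cxcl11, Cxcl14, Cxcl15 and Cxcl17, the cytokine genes Il1a, Il6, Il11 and Tnf, and 19 other interleukins (Il2 to Il5, Il7, Il9, Il10, Il12b, Il13, Il16, Il17a, Il17b, Il17d, Il20, Il21, Il23a, Il24, Il25 and Il31). Their signals ran between 0.833 and 94.9, with a median log2 signal of 3.59. Both shLSD1 arrays lay above both shControl arrays for 3 of them and below for 7, where 16.8% and 19% of all 7314 genes below the filter did so. The interferon-induced chemokine genes Cxcl9, Cxcl10 and Cxcl11 had log2 differences of -1.84, 0.49 and -1.28, values that near background carry little weight.

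The genes just below the filter were Il7, Ccl28 and Il16, and those just above it were Ccl25, Il1rn and Il1b. Il7, which encodes a survival factor of lymphocytes, had signals of 39.7 and 47.8 in shLSD1, against 90.1 and 94.9 in shControl. It was the only gene under the filter with 1 group above the filter level, both shLSD1 arrays were lower, and its log2 difference was -1.09. Ccl28 had 64.4 and 40.8 in shLSD1 and 75.4 and 49.2 in shControl, which overlap, and Il16 had 40.2 and 47.9 in shLSD1 and 64.6 and 63.6 in shControl, which do not. Tnf, the gene of the main inflammatory trigger of NF-kB, had signals of 20.0 and 16.5 in shLSD1 and 4.48 and 4.24 in shControl, all under the level of 95% of the receptor genes used to gauge background.

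On the receiving side, few chemokine receptors could be measured. Of 21 measured, 3 had both group means above the filter. Of these, 1 rose and 0 fell (8.75% and 7.09% over all tested genes), with a median log2 fold change of 0.33. The one that rose was Cxcr4, the receptor of CXCL12, with signals of 1335 and 1066 in shLSD1, against 789 and 829 in shControl. Both shLSD1 arrays were higher (log2 fold change 0.56, SE 0.11, limma adjusted p = 0.0142), opposite in sign to its ligand gene. Cxcr4 missed the threshold when either shControl array was left out and when the variance had no intensity trend. Ackr3, the gene of a scavenger receptor of CXCL12, measured 0.33 (SE 0.11, limma adjusted p = 0.0735).

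Of 34 measured interleukin receptor genes, 14 had both group means above the filter. Of these, 3 rose and 1 fell (8.75% and 7.09% over all tested genes), with a median of 0.18. The gene that fell was Il1r1, the signalling receptor of IL-1, with signals of 578 and 551 in shLSD1, against 848 and 927 in shControl (log2 fold change -0.65, SE 0.09, limma adjusted p = 3.22e-03). Its call was kept in all 12 alternatives that tested it. With its probe sets averaged, Il1r1 lay under the filter and was not tested. Il1r1 moved the same way as the ligand gene Il1b. Il13ra1, a chain of the receptor of IL-4 and IL-13, rose by 0.78 (SE 0.13, limma adjusted p = 7.12e-03), and Il10rb, a chain that IL-10 and related receptors share, rose by 0.47 (SE 0.08, limma adjusted p = 9.84e-03). Il17rc, a chain of the IL-17 receptor, rose by 0.56 (SE 0.09, limma adjusted p = 5.35e-03), but with the mean of its probe sets it measured -0.37. Csf2rb, the chain that IL-3, IL-5 and GM-CSF receptors share, had signals of 348 and 113 in shLSD1, against 41.4 and 43.3 in shControl. It passed the filter only because of its shLSD1 values, which differ widely from each other, so it is described here with no test. Il10rb missed the threshold when either shControl array was left out and when probe sets were averaged, Il13ra1 when shControl replicate 2 was left out, and Il10rb, Il13ra1 and Il17rc when the variance had no intensity trend. The IL-18 receptor gene Il18r1 was near background, between 3.02 and 6.22 on the 4 arrays, and the partner chain gene Il18rap measured 0.07 (limma adjusted p = 0.889).

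Genes of the pathways downstream showed few calls. Of 24 genes for IL-6 family and CSF1 receptors and JAK-STAT signalling with both group means above the filter, 1 rose and 1 fell, with a median of 0.05. Socs2, a feedback inhibitor of JAK-STAT signalling, rose by 0.35 (SE 0.07, limma adjusted p = 0.0167) over a range of 0.14 to 0.46 in the alternatives, and Ptpn2, a phosphatase gene acting on JAK and STAT proteins, fell by 0.32 (SE 0.06, limma adjusted p = 8.11e-03). Both missed the threshold when either shControl array was left out, when the variance had no intensity trend and when probe sets were averaged. Of 30 such genes for NF-kB and TNF signalling, 1 rose and 0 fell, with a median of -0.04. The one that rose was Tlr4, the endotoxin receptor gene (log2 fold change 0.47, SE 0.07, limma adjusted p = 5.49e-03), which missed the threshold when shControl replicate 2 was left out and when probe sets were averaged. Of 27 measured cytokine genes outside the naming rule 4 were tested, and Tnfsf9, which encodes the ligand of the T cell costimulator 4-1BB, rose. Its signal was 430 and 433 in shLSD1, against 250.0 and 225 in shControl (log2 fold change 0.86, SE 0.12, limma adjusted p = 3.85e-03). Its call was kept in all 12 alternatives that tested it, and it lay under the raised filter in the remaining one. Over all genes tested 15.8% passed the threshold in either direction.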

How the data were processed

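Expression was measured on 4 Affymetrix 3' arrays, 2 of shLSD1 and 2 of shControl, grouped by their labels, with biotin-labelled RNA made from 250 ng of total RNA per the labels. The deposited values are signal intensities per probe set, not logged. The submitters' processing notes name MAS5 and Affymetrix Expression Console; their versions are not stated in the material used. MAS5 scales each array by 1 factor and is noisy on a log scale near background. With 2 arrays a group, precision is limited by the number of arrays.

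Of 45101 probe sets, 64 controls were left out, and 34945 had 1 gene symbol in the platform annotation, 932 several and 9160 none. Signals under 1 were set to 1 (503 to 704 probe sets per array) before log2. The fit over 10879 genes used limma 3.58.1 under R 4.3.3, with lmFit, trended eBayes (7.54 degrees of freedom in all), two-sided p-values and Benjamini-Hochberg adjustment. The procedure was tested on independent values simulated from the fitted model, which checks the code and not how well that model suits these arrays. Figures were drawn with matplotlib 3.10.9.

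All members above the filter are named, with those below it whose mean in 1 group exceeds it and the 3 nearest below. From each signalling list, up to 6 genes past the threshold and receptors of the members that changed are named. Fibroblast, muscle, immune and endothelial markers served as checks. The members and lists were chosen with earlier results of these data known, and the olfactory and vomeronasal receptor gauge and the counts of list genes with both group means above the filter were added after the values were seen. Alternatives left out each array in turn, added the replicate number as a block, used quantile normalization, centred arrays on their medians, took log2(signal + 32), dropped the filter or raised it to log2 8.91, removed the trend, made the variance robust, or averaged a gene's probe sets.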

Additional observations from a re-analysis of the deposited data

How the results depend on the processing

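The 3 genes that rose and the 3 that fell were the same genes, 3 and 3, with the replicate number as a block, quantile normalization, median centring, log2(signal + 32) and robust variance. The replicate numbers are not known to pair the arrays, and the deviations of equal numbers from their group means correlated at 0.003 over tested genes. The count that rose was 1 (Il18) with no filter, with no intensity trend and with the mean of probe sets, and 1 to 4 with an array left out. The count that fell was 1 to 3 with an array left out, and without either shControl array Il18 and Csf1 alone kept their calls. Over all genes tested, 952 rose and 771 fell. The counts were 375 and 262 with no intensity trend and 494 and 407 with the mean of probe sets. They ranged over 349 to 1151 and 228 to 1041 with an array left out, the lowest without a shControl array, where the lone array of the group is assumed to vary like the other group. With the block they were 1236 and 984. Il17rc measured -0.369 with the mean of its probe sets, and no other gene described as rising or falling changed sign under any alternative. The cause of these differences was not tested. With 2 arrays a group, the 95% intervals of the genes not called span from 0.56 to 1.33 log2 units, and signals near background limit what can be read for the 42 genes below the filter.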
